A study of Mus musculus with 15 samples.

Results

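The 31 genes described here encode enzymes, regulators and carriers of cholesterol and fatty acid synthesis that are controlled by the sterol regulatory element-binding proteins (SREBPs). They were chosen by name from this pathway, and all 31 were found among the 29659 genes of each library and passed the filter on low values. By role, 7 act in the mevalonate steps, 11 between squalene and cholesterol, 6 in regulation and sterol transport, and 7 in fatty acid synthesis. Their transcript levels were measured by bulk RNA-seq of poly(A) RNA from the thalamus of 15 mice, all sampled at 4.5 months of age. EL mice (n = 3) are homozygous for a human APOE4 knock-in and keep an intact Lilrb4a gene, which encodes an inhibitory receptor of microglia and other myeloid cells. ELKO mice (n = 3) are also APOE4+/+ and lack Lilrb4a (Lilrb4a-/-). 5EL mice (n = 5) are APOE4+/+ with intact Lilrb4a and carry the 5xFAD transgenes, which express mutant human amyloid precursor protein and presenilin in neurons under the Thy1 promoter. 5ELKO mice (n = 4) are 5xFAD, APOE4+/+ and Lilrb4a-/-. Human APOE4 was thus shared by every group, controls included, the Lilrb4a deletion was carried by every cell and not by microglia alone, and no group with mouse or another human APOE allele was measured.

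The SREBPs are made as precursors in the membrane of the endoplasmic reticulum, where Scap escorts them and the Insig proteins hold the complex back while sterols are plentiful. When sterols run low the complex moves to the Golgi, the factor is cut free and enters the nucleus, and it turns on its own pathway: the product of Srebf2 acts mainly on cholesterol genes and that of Srebf1 mainly on fatty acid genes. The brain makes nearly all of its own cholesterol, because lipoproteins of the blood do not cross the blood-brain barrier; astrocytes and myelinating oligodendrocytes are major sites of synthesis, and astrocytes hand cholesterol to neurons on APOE particles.

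No member of the pathway differed between groups beyond the error once all genes were accounted for. With limma on the deposited log2 values and Benjamini-Hochberg adjustment over all genes tested, 0 of 31 genes had an adjusted p under 0.05 in each of the 5 comparisons, where 0.0191% of all genes tested passed in 5ELKO against 5EL and 0% in 5EL against EL, 0% in 5ELKO against ELKO, 0% in ELKO against EL and 0% in the interaction. At a nominal p under 0.05, 0 of 31 passed in 5ELKO against 5EL (2.49% of all genes tested), 1 of 31 in 5EL against EL (7.7%), 0 in 5ELKO against ELKO (2.37%), 0 in ELKO against EL (2.35%) and 0 in the interaction (2.73%), which is the difference between the deletion effects with and without 5xFAD. These shares of members were at or below those of all genes. The single gene at a nominal p under 0.05 was Scd1, a stearoyl-CoA desaturase, which was lower in 5EL than in EL. The comparisons share groups, so their values are not independent of each other: 5EL, 5ELKO, EL and ELKO each enter 2 of the 4 pairwise comparisons and the interaction uses all of them. In bulk tissue, fewer cells of a type and less RNA per cell cannot be told apart.

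Most members that have a promoter sequence share a short motif that is known to be bound beside SREBP at sterol genes. The RefSeq promoter table of GRCm38.p6 held 25 of the 31 genes, and Fdps, Fdft1, Sqle, Stard4, Scd1 and Scd2 had no entry. In the 250 bases before the start, using the earliest listed entry of a gene with several, the box CCAAT of the factor NF-Y occurred on either strand in 19 of 25 members (76.0%) and in 33.8% of all 32851 promoters of this length. It was found in 5 of 6 mevalonate genes, 8 of 9 genes of the squalene and sterol steps, 4 of 5 regulators and 2 of 5 fatty acid genes. The GC box GGGCGG occurred in 17 of 25 members against 32.7% of all promoters, and in 9 of 9 genes of the squalene and sterol steps. Among 19 other genes of these pathways with an entry, 13 held the GC box and 10 the CCAAT box, so the GC box was as frequent there as in the members. The E-box CACGTG occurred in 4 of 25 against 6.02%. The core of the classical sterol regulatory element, TCACNCCAC with any base at N, occurred in 1 of 25, Hmgcs1, against 1.05% of all promoters. Both strands were searched, and CACGTG reads the same on each. The share of all promoters counts every entry, so a gene with several enters with each of them, while each member enters with 1. The upstream sequences of 4 genes are given here 5′ to 3′ on the strand of the gene, because they stand for the arrangements among the members: Hmgcs1 with the element core, Mvk with the largest number of CCAAT boxes, Insig1 with all of the other motifs and Fasn as the central lipogenic gene. Capitals mark matches to any of the 4 motifs on either strand, so that CCAAT also appears as ATTGG. The windows were chr13:119690101-119690350 on the plus strand for Hmgcs1, chr5:114444061-114444268 on the plus strand for Mvk, chr5:28071162-28071362 on the plus strand for Insig1 and chr11:120824548-120824797 on the minus strand for Fasn. Bases inside annotated exons were left out, which shortened the window of Mvk to 208 bases and that of Insig1 to 201 bases.
Hmgcs1: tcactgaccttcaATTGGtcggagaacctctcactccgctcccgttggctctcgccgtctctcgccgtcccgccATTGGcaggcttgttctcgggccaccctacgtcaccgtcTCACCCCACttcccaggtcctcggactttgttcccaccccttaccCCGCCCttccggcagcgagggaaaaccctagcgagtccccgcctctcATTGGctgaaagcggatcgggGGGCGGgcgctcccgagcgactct
Mvk: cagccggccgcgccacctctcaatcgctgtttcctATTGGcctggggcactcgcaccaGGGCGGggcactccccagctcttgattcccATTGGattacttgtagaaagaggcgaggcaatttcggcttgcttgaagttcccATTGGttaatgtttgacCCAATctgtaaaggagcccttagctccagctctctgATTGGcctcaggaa
Insig1: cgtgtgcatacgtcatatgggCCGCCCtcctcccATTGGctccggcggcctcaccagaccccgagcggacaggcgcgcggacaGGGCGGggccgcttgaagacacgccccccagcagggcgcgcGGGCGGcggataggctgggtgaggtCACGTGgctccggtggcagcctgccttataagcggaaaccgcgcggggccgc
Fasn: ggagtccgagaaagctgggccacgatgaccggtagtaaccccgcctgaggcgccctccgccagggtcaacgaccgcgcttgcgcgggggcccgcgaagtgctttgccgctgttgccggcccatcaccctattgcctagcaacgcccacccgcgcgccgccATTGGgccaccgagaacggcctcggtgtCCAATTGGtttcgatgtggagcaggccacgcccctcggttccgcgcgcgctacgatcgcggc
In Hmgcs1 the element core lay 137 to 129 bases before the start, between CCAAT boxes at 176 to 172 and 45 to 41 bases. Mvk held 5 CCAAT boxes, the nearest 14 to 10 bases before the start. Fasn held 3, of which 2 overlapped on opposite strands between 62 and 55 bases before the start. A match in this window is a description of the letters and not evidence of binding.

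Several libraries stood apart. Lilrb4a was listed at 2.33 in all 7 Lilrb4a-/- libraries and between 2.345 and 2.66 in the other 8, close to the lower end of the scale. The mouse Apoe row was at 10.90 in ELKO replicate 1 and between 5.92 and 6.37 in the other 14 libraries, which goes against the APOE4 label of that library. The mean of 8 choroid plexus markers was 8.39 in 5EL replicate 1 and 8.78 in ELKO replicate 2, and between 5.85 and 6.52 in the others. The mean of 6 thalamic markers was between 12.51 and 13.18, with EL replicate 3 highest, and that of 10 markers of myelinating oligodendrocytes between 12.05 and 12.49. The labels give no sex, and Xist was near the lower end in all 15 libraries while Ddx3y was at 10.3 or more. Counts of genes with a nominal p under 0.05 are also given without these libraries where they change.

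Levels per kilobase of exon spanned a wide range, with the fatty acid desaturases at the top. In EL, the mean log2 value minus the log2 exon length in kilobases was 13.03 for Scd2 and 10.91 for Scd1, the desaturases that place a double bond in stearoyl-CoA and of which Scd2 is the main brain form. Hmgcs1, the synthase that makes HMG-CoA, followed at 10.36, Acly, which makes cytosolic acetyl-CoA from citrate, at 9.76, Insig1 at 9.50, Fasn at 9.34 and Srebf2 at 9.24. From Pmvk (9.13) down to Dhcr7 (6.74) and Tm7sf2 (6.66) neighbours lay close together. Fdft1 (8.76, SD 0.23) and Cyp51 (8.72, SD 0.11), for example, differed by less than their SD over the 3 EL libraries, as did Hsd17b7 (7.39, SD 0.12) and Mvk (7.38, SD 0.049). The SD in EL ran from 0.031 for Msmo1 to 0.32 for Fasn. Lss (5.78) and Fdps (1.71) came last. The exon length used here joins all annotated exons of a gene and can exceed its longest transcript. It was 10787 bases against 4667 for Lss and 4403 against 1498 for Tm7sf2. Levels per kilobase and their order depend on that choice. Srebf2 lay above Srebf1 (8.02), with SDs of 0.28 and 0.115, and Insig1 above Insig2 (8.58), with SDs of 0.12 and 0.13.

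**Figure D1:**
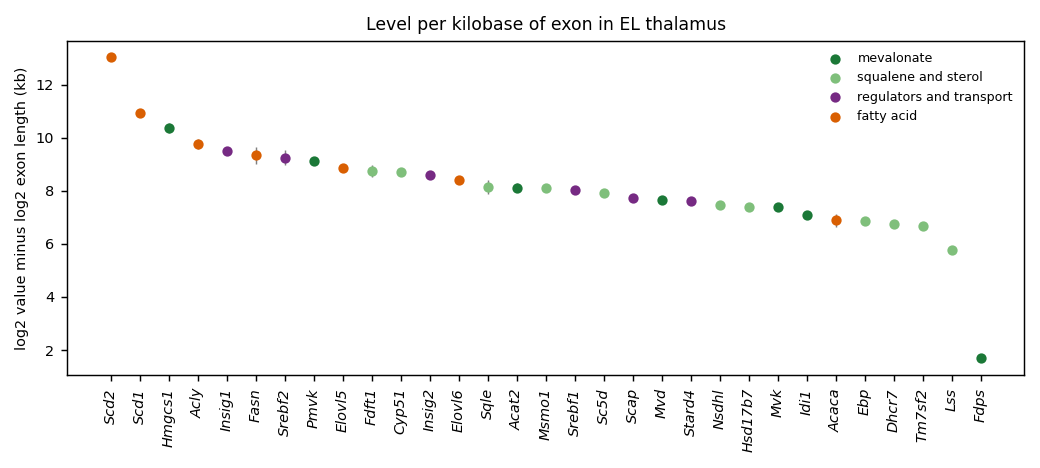
Mean log2 value in EL (n = 3) minus the log2 exon length in kilobases for the 31 genes, ordered from highest to lowest and coloured by role; bars are the SD over the 3 libraries and most are smaller than the point. Scd2 (13.03) and Scd1 (10.91) lie highest and Fdps (1.71) lies far below all others.

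The value of Fdps, which encodes farnesyl diphosphate synthase, is uncertain. Its log2 value was between 3.66 and 3.84 in all 15 libraries, whereas the other members lay between 7.95 and 15.64. In the GENCODE M21 annotation, 91.4% of its longest transcript matched Gm3571 and Gm43738 at 97% identity or more, and 26.7% of its exon bases lay inside exons of Gm43738. The authors counted read pairs without regard to strand, and the options they state do not include the counting of pairs that map to several places or genes. Gm3571 was listed between 1.39 and 1.47 and Gm43738 near -1.91, close to the lower end of the scale. Other members with matches to other genes over a large part of their longest transcript were Acat2 (65.6%, to Acat3 and Tcp1), Acaca (64.3%, to Gm5182), Fdft1 (54.7%, to Ctsb and Gm6781) and Idi1 (33.3%, to 3 genes). Smaller parts matched in Scap (18.9%), Hmgcs1 (16.2%) and Elovl6 (15.1%). Their levels are uncertain to that extent.

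Pooled over the groups, the deviations of the sterol enzymes from their group means were partly shared from mouse to mouse. The mean of 17 sterol enzymes, which left out Fdps after its values were seen, had a pooled within-group SD of 0.102, which was 79.3% of the median SD of a single enzyme (0.129). In 5EL this mean was 9.81, 9.63, 9.87, 9.56 and 9.59 in replicates 1 to 5. In 5ELKO it was 9.64, 9.77, 9.67 and 9.66, in EL 9.80, 9.75 and 9.65, and in ELKO 9.67, 9.80 and 9.85. The 4 groups overlapped, and the highest and the lowest of the 15 values were both from 5EL mice. In 5ELKO only replicate 2 lay above its group mean (0.084, against -0.043 to -0.012 in the others). A ratio of SDs over all genes is not given here, so a shift of whole libraries cannot be told apart from one of these enzymes. Of the 17 enzymes, 11 were highest of their group in 5EL replicate 3, 12 in 5ELKO replicate 2 and 9 in EL replicate 1, and 8 were lowest in 5EL replicate 4, 11 in EL replicate 3 and 13 in ELKO replicate 1. ELKO replicate 1 is the library with the high mouse Apoe value, whose part in this was not tested.

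**Figure D2:**
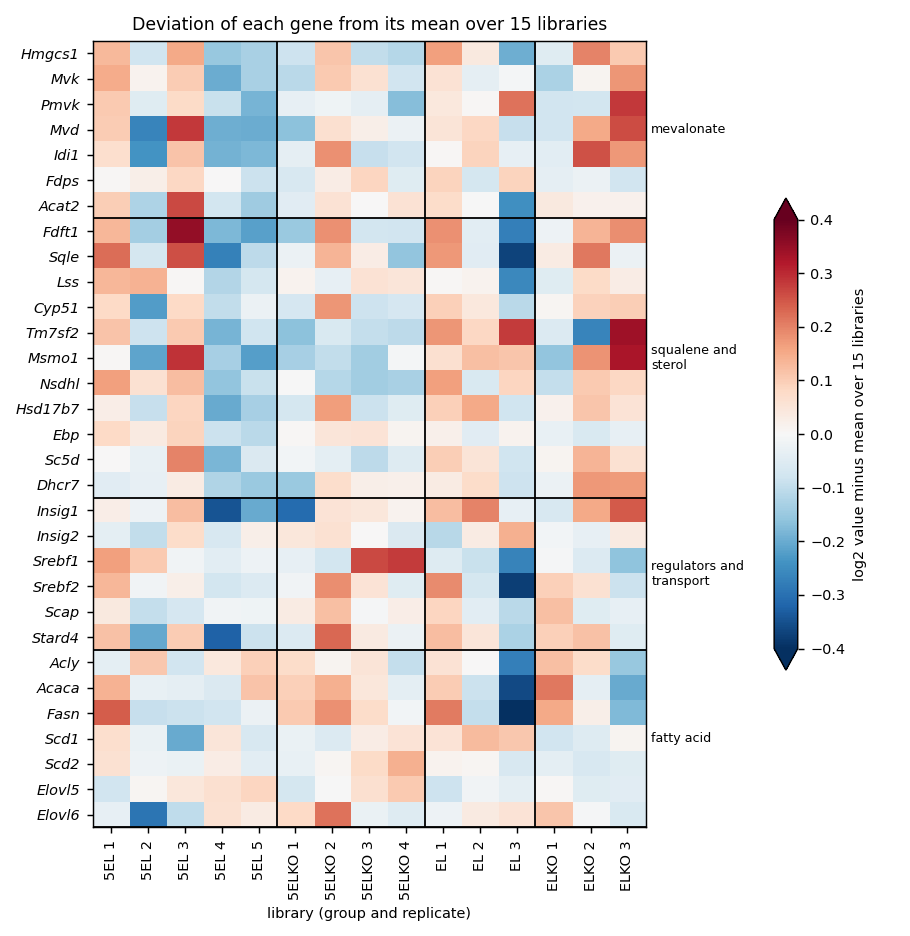
Log2 value of each of the 31 genes (rows, grouped by role) minus its mean over 15 libraries (columns, by group and replicate); red is above and blue below the mean, and values beyond 0.4 take the end colours. Columns of like colour run through the sterol enzymes, for example 5EL replicate 3 (red) and 5EL replicate 4 (blue), and EL replicate 3 holds the lowest value of 11 genes.

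In EL the fatty acid enzymes ranked the libraries as the sterol enzymes did, whereas in the other groups the orders differed. The mean of the 7 had a pooled within-group SD of 0.065, which was 56.6% of the median SD of a single gene (0.114). In 5EL it was 12.42, 12.32, 12.30, 12.39 and 12.40, in 5ELKO 12.40, 12.44, 12.42 and 12.39, in EL 12.42, 12.37 and 12.23, and in ELKO 12.44, 12.36 and 12.27. EL replicate 3 and ELKO replicate 3 were the lowest of all 15, although ELKO replicate 3 had the highest mean of its group for the sterol enzymes. EL replicate 3 held the lowest of 15 values for 11 of the 31 genes, among them Hmgcs1, Sqle, Srebf1, Srebf2, Acly, Acaca and Fasn. The same library had the highest mean of thalamic markers (13.18) and of neuronal markers (13.44, against 13.20 to 13.39 in the others) and the lowest of reactive astrocyte markers (8.403, against 8.61 to 9.96); their part in the low values was not tested. The mean of the 6 genes of regulation and transport had a pooled SD of 0.076, which was 55.3% of the median SD of a single gene (0.137).

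**Figure D3:**
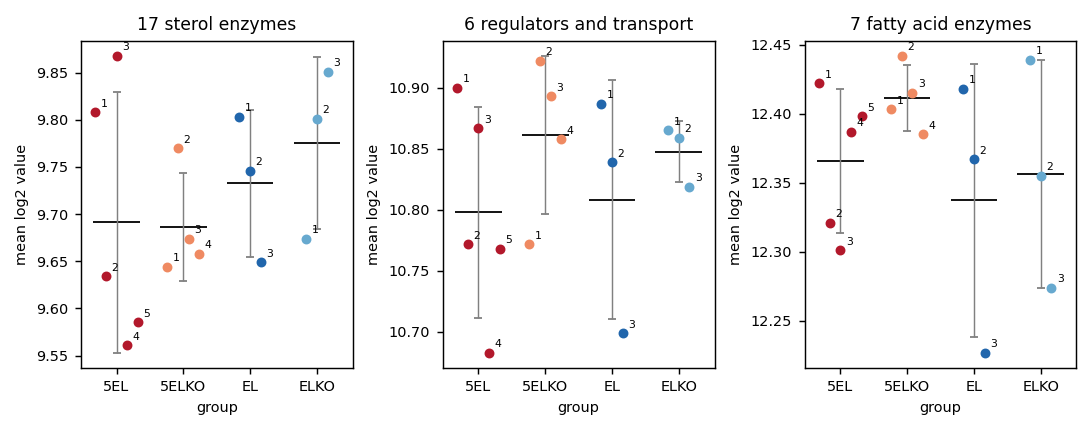
Mean log2 value per library of the 17 sterol enzymes without Fdps, the 6 genes of regulation and transport and the 7 fatty acid enzymes, by group; points are libraries with their replicate number, lines the group mean and bars the SD. In each panel the 4 groups overlap, and EL replicate 3 (12.23) and ELKO replicate 3 (12.27) lie lowest for the fatty acid enzymes.

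Among the mevalonate genes, no difference between groups passed the test. Hmgcs1 was at 12.69, 12.47, 12.71, 12.40 and 12.42 in 5EL, 12.47, 12.67, 12.46 and 12.44 in 5ELKO, 12.72, 12.59 and 12.36 in EL, and 12.51, 12.75 and 12.66 in ELKO. Every group covered much the same range, and its differences ran from -0.13 (SE 0.098) in 5ELKO against ELKO to 0.083 (SE 0.105) in ELKO against EL. Fdps was at 3.75, 3.77, 3.83, 3.75 and 3.66 in 5EL, 3.68, 3.78, 3.83 and 3.70 in 5ELKO, 3.84, 3.68 and 3.84 in EL, and 3.71, 3.72 and 3.67 in ELKO. It ranked among the 5 smallest p in ELKO against EL (-0.082, SE 0.0535, limma adjusted p = 0.998), a value that carries the doubt given above. The kinases Mvk and Pmvk, the decarboxylase Mvd, the isomerase Idi1 and the thiolase Acat2, which supplies acetoacetyl-CoA, lay over the 15 libraries between 8.60 and 8.98, 9.63 and 10.10, 8.27 and 8.81, 8.65 and 9.15, and 9.27 and 9.78. None of these 5 had groups without overlap in the 4 pairwise comparisons.

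Between squalene and cholesterol, no enzyme differed between groups beyond the error. In 5EL against EL 7 of 11 and in 5ELKO against ELKO 9 of 11 were below 0, and among the mevalonate genes 6 of 7 were in each. Sqle, the squalene epoxidase and a slow step of the pathway, was at 10.91, 10.62, 10.95, 10.42 and 10.58 in 5EL, 10.67, 10.83, 10.72 and 10.53 in 5ELKO, 10.86, 10.64 and 10.32 in EL, and 10.72, 10.90 and 10.67 in ELKO. With Fdft1, the squalene synthase, it had the widest pooled within-group SD of the 31 genes (0.198 each). Tm7sf2, a sterol reductase (chromosome 19, 6062821 to 6068373, minus strand), was at 8.73, 8.54, 8.72, 8.43 and 8.54 in 5EL, 8.46, 8.56, 8.52 and 8.51 in 5ELKO, 8.79, 8.70 and 8.90 in EL, and 8.57, 8.36 and 8.96 in ELKO. The 4 5ELKO values lay close together, and the widest gap within a group was between ELKO replicates 2 and 3. Tm7sf2 was lower in 5EL than in EL by -0.21 (SE 0.11, limma adjusted p = 0.633). Msmo1, a sterol methyl oxidase (chromosome 8, 64718139 to 64733792, minus strand), was at 10.61, 10.40, 10.90, 10.48 and 10.39 in 5EL, 10.48, 10.51, 10.47 and 10.60 in 5ELKO, 10.67, 10.73 and 10.72 in EL, and 10.45, 10.79 and 10.93 in ELKO. All but 5EL replicate 3 of the 5EL values lay below the 3 EL values, while ELKO ran from 10.45 to 10.93. Its difference was -0.21 (SE 0.12, adjusted p = 0.999) in 5ELKO against ELKO and -0.15 (SE 0.11, adjusted p = 0.656) in 5EL against EL.

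The other enzymes of these steps had smaller differences. Nsdhl, a dehydrogenase that removes methyl groups from the sterol ring, was at 9.08, 8.98, 9.04, 8.76 and 8.83 in 5EL, 8.92, 8.80, 8.78 and 8.79 in 5ELKO, 9.08, 8.86 and 9.004 in EL, and 8.82, 9.02 and 9.001 in ELKO. It was lower in 5ELKO than in 5EL by -0.12 (SE 0.070, adjusted p = 0.999), with overlap of the groups. Hsd17b7, a ketosteroid reductase of the same step, was at 9.71, 9.59, 9.77, 9.48 and 9.55 in 5EL, 9.61, 9.85, 9.599 and 9.64 in 5ELKO, 9.78, 9.84 and 9.61 in EL, and 9.70, 9.80 and 9.74 in ELKO. Its difference in 5EL against EL was -0.12 (SE 0.0765, adjusted p = 0.644). Sc5d, a sterol desaturase, was at 10.18, 10.15, 10.38, 9.996 and 10.12 in 5EL, 10.17, 10.14, 10.07 and 10.13 in 5ELKO, 10.28, 10.23 and 10.10 in EL, and 10.19, 10.32 and 10.24 in ELKO. All 4 5ELKO libraries lay below the 3 ELKO libraries (-0.12, SE 0.073, adjusted p = 0.999). Dhcr7, the reductase that completes one route to cholesterol, was at 9.22, 9.24, 9.30, 9.15 and 9.12 in 5EL, 9.12, 9.34, 9.29 and 9.29 in 5ELKO, 9.30, 9.34 and 9.18 in EL, and 9.25, 9.44 and 9.44 in ELKO. It was lower in 5ELKO than in ELKO by -0.12 (SE 0.069, adjusted p = 0.999), although ELKO replicate 1 lay below 3 of the 4 5ELKO values. Lss, which closes the sterol rings, was at 9.42, 9.43, 9.29, 9.17 and 9.22 in 5EL, 9.31, 9.26, 9.35 and 9.34 in 5ELKO, 9.29, 9.31 and 9.03 in EL, and 9.24, 9.37 and 9.32 in ELKO. EL replicate 3 alone lay apart. Cyp51, the lanosterol demethylase, and Ebp, a sterol isomerase, lay between 10.63 and 11.03 and between 7.95 and 8.15.

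Of the regulators, Srebf1 was higher in both 5xFAD groups than in their controls, by less than the error allows to call. Srebf1 (chromosome 11, 60199089 to 60222581, minus strand) was at 10.81, 10.75, 10.63, 10.60 and 10.63 in 5EL, 10.61, 10.57, 10.91 and 10.92 in 5ELKO, 10.59, 10.56 and 10.38 in EL, and 10.64, 10.59 and 10.48 in ELKO. All 5 of the 5EL values lay above the 3 EL values, the closest pair being 10.603 and 10.593, whereas 5ELKO replicates 1 and 2 lay within the range of ELKO. The difference was 0.17 (SE 0.086, 95% interval -0.0086 to 0.36, adjusted p = 0.63) in 5EL against EL and 0.18 (SE 0.090, 95% interval -0.0080 to 0.38, adjusted p = 0.999) in 5ELKO against ELKO. These contrasts share no library, but both draw on the spread estimated over all 15. They are also not separate in another way: EL and ELKO libraries of number 3 shared their deviations over genes (correlation 0.742). Srebf1 was lowest of its group in both of these libraries. Without them, its difference in 5EL against EL was 0.109. What these libraries share is not given, and its part was not tested. Srebf2, which drives the cholesterol genes, was at 12.30, 12.15, 12.19, 12.09 and 12.11 in 5EL, 12.15, 12.35, 12.22 and 12.12 in 5ELKO, 12.36, 12.10 and 11.79 in EL, and 12.27, 12.23 and 12.08 in ELKO. EL replicates 1 and 3 were the highest and the lowest of all 15. Its pairwise differences ran from 0.019 (SE 0.10) in 5ELKO against ELKO to 0.11 (SE 0.11) in ELKO against EL.

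Insig1, itself a target of SREBP and the retention factor of the pathway (chromosome 5, 28071363 to 28078662, plus strand), was at 11.06, 11.01, 11.16, 10.69 and 10.83 in 5EL, 10.72, 11.09, 11.08 and 11.05 in 5ELKO, 11.16, 11.23 and 11.00 in EL, and 10.97, 11.18 and 11.28 in ELKO. The lowest 3 values were 5EL replicates 4 and 5 and 5ELKO replicate 1. It was lower in 5EL than in EL by -0.18 (SE 0.11, adjusted p = 0.644) and in 5ELKO than in ELKO by -0.16 (SE 0.115, adjusted p = 0.999). Scap was at 10.70, 10.56, 10.59, 10.65 and 10.64 in 5EL, 10.69, 10.78, 10.65 and 10.68 in 5ELKO, 10.75, 10.61 and 10.55 in EL, and 10.78, 10.61 and 10.62 in ELKO. It had the smallest p of the members in 5ELKO against 5EL (0.073, SE 0.0425, adjusted p = 0.999), with overlap. Stard4, a carrier that moves sterols to the endoplasmic reticulum, was at 10.22, 9.89, 10.20, 9.77 and 10.01 in 5EL, 10.04, 10.33, 10.14 and 10.07 in 5ELKO, 10.22, 10.15 and 9.97 in EL, and 10.19, 10.22 and 10.05 in ELKO. The lowest pair of values came from 5EL, and the difference of 5ELKO from 5EL was 0.13 (SE 0.092, adjusted p = 0.999). Insig2, the second retention factor, lay between 10.25 and 10.50.

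Among the fatty acid enzymes, Scd1 was the member whose p was smallest in 3 of the 5 comparisons. Scd1 (chromosome 19, 44394455 to 44407879, minus strand) was at 13.17, 13.08, 12.90, 13.15 and 13.04 in 5EL, 13.08, 13.05, 13.14 and 13.16 in 5ELKO, 13.16, 13.23 and 13.21 in EL, and 13.03, 13.05 and 13.12 in ELKO. EL was the high group: its 3 libraries lay above the 3 ELKO libraries and above 4 of the 5 5EL libraries. Scd1 was lower in 5EL than in EL by -0.13 (SE 0.058, 95% interval -0.255 to -0.0068, adjusted p = 0.63) and in ELKO than in EL by -0.13 (SE 0.065, adjusted p = 0.998). The interaction was 0.17 (SE 0.084, adjusted p = 1). All 3 contrasts rest on the same 3 EL libraries, so they are not separate observations. In 5EL against EL, Scd1 no longer had a nominal p under 0.05 when any of 5EL replicates 2, 3 and 5 or EL replicates 2 and 3 was left out, or when only the 8 libraries of these groups were fitted.

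Scd2, the neighbouring desaturase gene and the member with the smallest pooled within-group SD (0.0515), was at 15.56, 15.48, 15.47, 15.53 and 15.45 in 5EL, 15.47, 15.50, 15.57 and 15.64 in 5ELKO, 15.51, 15.50 and 15.43 in EL, and 15.46, 15.43 and 15.45 in ELKO. All 4 of the 5ELKO values lay above the 3 ELKO values (0.099, SE 0.059, adjusted p = 0.999). Fasn, the fatty acid synthase (chromosome 11, 120805846 to 120824547, minus strand), was at 13.14, 12.80, 12.81, 12.82 and 12.87 in 5EL, 13.00, 13.08, 12.97 and 12.89 in 5ELKO, 13.11, 12.80 and 12.47 in EL, and 13.05, 12.92 and 12.72 in ELKO. In 5EL, 4 libraries lay close together below every 5ELKO library, and replicate 1, the library with high choroid plexus markers, lay above all of them. The difference of 5ELKO from 5EL was 0.094 (SE 0.070, adjusted p = 0.999) with that library and 0.16 (SE 0.051, adjusted p = 1) without it, and the part of the choroid plexus in this was not tested. Elovl6, which lengthens palmitate, was at 11.04, 10.77, 10.96, 11.13 and 11.10 in 5EL, 11.15, 11.28, 11.04 and 11.02 in 5ELKO, 11.05, 11.10 and 11.12 in EL, and 11.18, 11.06 and 11.01 in ELKO. It was higher in 5ELKO than in 5EL by 0.12 (SE 0.075, adjusted p = 0.999), and 5EL replicate 2 was the lowest of all libraries. Acly, Acaca, which makes malonyl-CoA, and Elovl5, which lengthens polyunsaturated chains, lay between 11.95 and 12.35, 10.73 and 11.31, and 10.62 and 10.81.

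**Figure D4:**
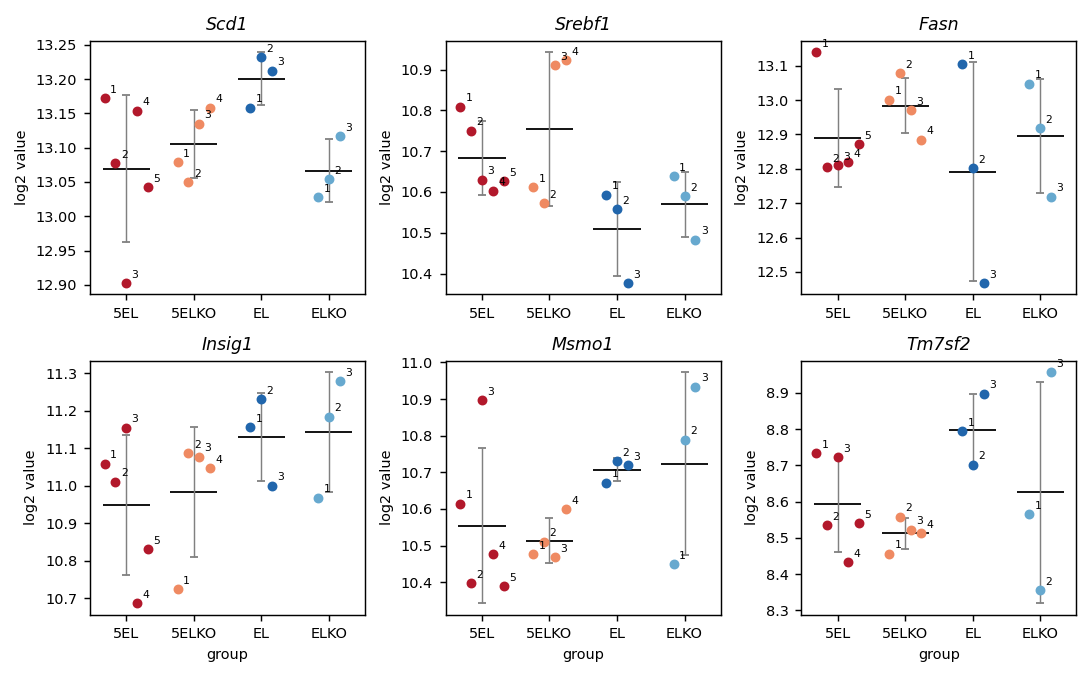
Log2 value of Scd1, Srebf1, Fasn, Insig1, Msmo1 and Tm7sf2 in each library by group; points carry the replicate number, lines are group means and bars the SD. The 3 EL libraries lie above the 3 ELKO libraries for Scd1, the 5 5EL libraries lie above the 3 EL libraries for Srebf1, and 5EL replicate 1 lies alone at 13.14 for Fasn.

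Deletion of Lilrb4a in the 5xFAD background was compared in 5ELKO against 5EL, the main contrast of the series. The median log2 difference of the 31 genes was 0.028, against 0.0016 over all 15743 genes tested, and 20 of 31 were above 0. All 6 regulators and carriers (median 0.056) and 5 of 7 fatty acid genes (median 0.036) were above 0, as were 9 of 18 sterol enzymes. No member had groups that did not overlap (0 of 31, against 1.06% of all genes tested). The interval of 27 of 31 genes lay inside a change of 1.2-fold (0.263 in log2), as did that of 14020 of the 15743 genes, and the bounds of all 31 ran from 0.83-fold for Nsdhl to 1.25-fold for Stard4. Here and below, folds are on the deposited log2 scale. Its transformation is not given, so they need not equal folds of counts. Without 5EL replicate 1, 1 of 31 genes had a nominal p under 0.05, Fasn, where 3.06% of all genes tested did, and the median was 0.0485. Without 5EL replicate 4, where 2.2% of all genes did, it was Nsdhl (-0.16, SE 0.0645, adjusted p = 1). Hepatocyte markers were higher in 5ELKO than in 5EL (mean of 8, 5.05 to 5.45 in 5ELKO and 4.60 to 4.82 in 5EL). Without 5xFAD they were not higher in the deletion (4.58 to 4.805 in ELKO and 4.63 to 5.48 in EL). Adipocyte markers were at the lower end of the scale in all libraries (-0.85 to -0.83). The part of liver RNA in these values was not tested.

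The effect of 5xFAD was compared in 5EL against EL with Lilrb4a intact. The median difference of the members was -0.032, against 0.00063 over all 15804 genes tested. Of 18 sterol enzymes, 13 were below 0 (median -0.040), whereas 5 of 7 fatty acid genes were above 0 (median 0.070). In 1 of 31 genes, Srebf1, the groups did not overlap (3.26% of all genes tested). Intervals lay inside 1.2-fold for 16 of 31 genes, and the bounds ran from 0.741-fold for Tm7sf2 to 1.28-fold for Sqle. These values depended on EL replicates 1 and 3. Without EL replicate 1, 5 genes had a nominal p under 0.05 (Srebf1, Srebf2, Acaca and Fasn higher in 5EL, Scd1 lower), but then 20.2% of all genes tested did so too. Without EL replicate 3 the count was 1, Hsd17b7 (-0.19, SE 0.081, adjusted p = 1), where 2.24% of all genes tested passed, and 6 of 31 genes were above 0, against 12 with all libraries. EL replicate 1 also had the highest hepatocyte markers of the 15 libraries (5.48). Without 5EL replicate 1, Tm7sf2 (-0.24, SE 0.11, adjusted p = 0.69) joined Scd1 (-0.16, SE 0.059, adjusted p = 0.684), where 6.99% of all genes tested passed, and without 5EL replicate 3 the gene was Msmo1 (-0.24, SE 0.091, adjusted p = 0.606), where 7.14% did. With the replicate number as a block the median of the 31 genes turned to 0.0043, and 17 of 31 were above 0. Plaque-associated microglial markers moved with 5xFAD (mean of 8, 6.23 to 6.98 in 5EL and 5ELKO and 6.06 to 6.29 in EL and ELKO), as did reactive astrocyte markers (9.07 to 9.96 against 8.403 to 9.32), and their part in the members' values was not tested.

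In 5ELKO against ELKO, the same question in the absence of Lilrb4a, 15 of 18 sterol enzymes were below 0 (median -0.11), and 6 of 7 fatty acid genes were above 0 (median 0.054). Over the 31 genes the median was -0.0081, against -0.00049 over all genes tested. The groups did not overlap in 3 of 31 genes, where 3.4% of all genes tested did so: Ebp (8.07 to 8.12 in 5ELKO and 7.999 to 8.03 in ELKO) and Scd2 were higher and Sc5d was lower in 5ELKO. Intervals lay inside 1.2-fold for 16 of 31 genes. No gene had a nominal p under 0.05 with all libraries. Without ELKO replicate 1, the library with the high mouse Apoe value, the median was -0.0309, with 15 of 31 genes above 0. Msmo1 (-0.35, SE 0.11, adjusted p = 0.793) and Dhcr7 (-0.18, SE 0.072, adjusted p = 0.793) then had a nominal p under 0.05, where 5.02% of all genes tested did. Without ELKO replicate 2, the library with high choroid plexus markers, it was Tm7sf2 (-0.25, SE 0.11, adjusted p = 1), where 2.1% of all genes tested passed. Srebf1 had a nominal p under 0.05 without 5ELKO replicate 1 (0.23, SE 0.093, adjusted p = 0.999), 5ELKO replicate 2 (0.24, SE 0.089, adjusted p = 1) or EL replicate 3 (0.18, SE 0.085, adjusted p = 0.999), where 2.37%, 2.65% and 2.91% of all genes tested passed. Without 5EL replicate 3 it was Msmo1 (-0.21, SE 0.091, adjusted p = 0.999; 2.53% of all genes). EL and 5EL libraries are not in these groups, so leaving them out changed the SE and not the difference. With the replicate number as a block the median turned to 0.0094.

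Deletion of Lilrb4a without amyloid was compared in ELKO against EL. The median difference was 0.040, against 0.0033 over all genes tested, with 22 of 31 genes above 0. Of the sterol enzymes 13 of 18 were above 0 (median 0.052); the median of the fatty acid genes was 0.0145 and turned to -0.0022 when libraries were recentred on their medians. In 1 of 31 genes, Scd1, the groups did not overlap (4.59% of all genes tested). Intervals lay inside 1.2-fold for 14 of 31, with bounds from 0.744-fold for Tm7sf2 to 1.37-fold for Sqle. Without EL replicate 3 the median was -0.0093 with 12 of 31 above 0, so the lean towards higher values in ELKO rested on that library. Without EL replicate 1, Srebf2 (0.25, SE 0.095, adjusted p = 0.366) and Fasn (0.26, SE 0.12, adjusted p = 0.421) had a nominal p under 0.05, where 11.6% of all genes tested did. Without ELKO replicate 1 it was Dhcr7 (0.17, SE 0.076, adjusted p = 0.999), where 2.22% of all genes tested passed. Without ELKO replicate 3, where 8.72% did, it was Tm7sf2 (-0.34, SE 0.096, adjusted p = 0.553) and Scd1 (-0.16, SE 0.0735, adjusted p = 0.553). Without EL replicate 2 it was Fdps (-0.135, SE 0.053, adjusted p = 0.989; 2.22% of all genes) and without 5EL replicate 3 Scd1 (-0.135, SE 0.053, adjusted p = 0.998; 2.49% of all genes). No 5EL library is in these groups, so leaving out 5EL replicate 3 changed the SE of Scd1 and not its difference. In the interaction the median was -0.0155 and turned to 0.0047 when libraries were recentred. The intervals of 7 of 31 genes lay inside 1.2-fold, so a dependence of that size of the deletion effect on 5xFAD is not excluded for the other 24. The median was 0.0242 without EL replicate 3, -0.0459 without ELKO replicate 1, -0.017 without ELKO replicate 2 and 0.00995 without 5EL replicate 1. Scd1 had a nominal p under 0.05 in the interaction without 5EL replicate 1 (0.196), 5EL replicate 4 (0.192), 5ELKO replicate 2 (0.189) or ELKO replicate 3 (0.196), and Tm7sf2 without ELKO replicate 3 (0.258), with SEs of 0.084 to 0.12 and adjusted p of 0.808 to 1. Of all genes tested, 2.78%, 2.75%, 2.16% and 5.38% passed in these 4 fits.

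**Figure D5:**
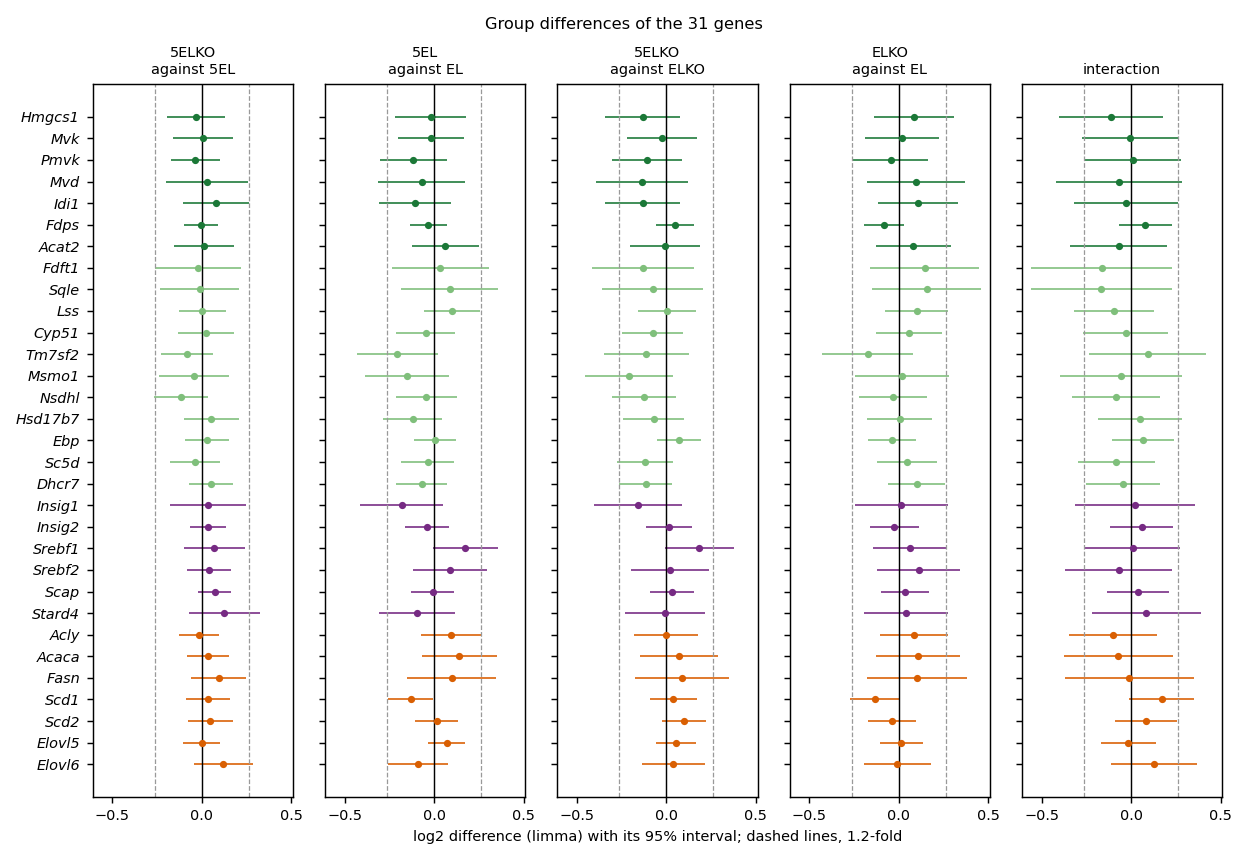
Log2 difference of each of the 31 genes with its 95% interval (limma) in the 5 comparisons, coloured by role; the solid line is 0 and the dashed lines are 1.2-fold. The interval of Scd1 in 5EL against EL lies wholly below 0 (-0.255 to -0.0068), and the intervals widen from 5ELKO against 5EL to the interaction.

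A further 25 genes of the same pathways were examined in the same fits, among them Lbr and Ggps1 of sterol and isoprenoid synthesis, Mbtps1, Mbtps2, Erlin1, Erlin2 and Rnf139 of SREBP control, Acss2, Acacb, Me1, Slc25a1, Mid1ip1, Thrsp, Fads1, Fads2, Elovl1, Elovl2, Elovl4, Elovl7 and Lpin1 of fatty acid and lipid synthesis, and Cyp46a1 and Soat1 of cholesterol turnover. With limma, none had an adjusted p under 0.05 in any comparison. At a nominal p under 0.05 there were 0 in 5ELKO against 5EL (2.49% of all genes tested) and 5 in 5EL against EL (7.7%). There were 0 in 5ELKO against ELKO (2.37%), 0 in ELKO against EL (2.35%) and 1 in the interaction (2.73%). In 5EL against EL, Erlin1, a protein of the endoplasmic reticulum membrane, was higher (0.15, adjusted p = 0.63), and Acss2, Cyp46a1, Thrsp (-0.27, adjusted p = 0.63) and Elovl4 (-0.12, adjusted p = 0.63) were lower, against 7.7% of all genes tested in either direction. Without EL replicate 3, a fit with a smaller EL group, 0 of the 25 had a nominal p under 0.05 in this comparison by limma. The share of all genes tested fell as well, to 2.24%. Calls of Elovl4, Erlin1 and Thrsp were also lost without EL replicate 2. Acss2, which makes acetyl-CoA from acetate, was at 10.21, 10.19, 10.12, 10.25 and 10.30 in 5EL and 10.29, 10.45 and 10.52 in EL (-0.21, SE 0.070, adjusted p = 0.63). Cyp46a1, the neuronal hydroxylase that removes cholesterol from the brain, was at 12.15, 11.84, 11.96, 11.995 and 12.04 in 5EL and 12.10, 12.17 and 12.26 in EL (-0.18, SE 0.070, adjusted p = 0.63). A 5EL library lay inside the EL range in each. Of the 5 genes called in 5EL against EL, 2 lost the call without 5EL replicate 1 (Thrsp and Elovl4). Cyp46a1 lost it without 5EL replicate 2 (-0.141). Leaving out any of several other libraries also ended calls of Thrsp, Elovl4 and Erlin1.

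Slc25a1, the citrate carrier of mitochondria, was the gene with a nominal p under 0.05 in the interaction (-0.22, SE 0.092, adjusted p = 1). It was at 9.18, 9.22, 9.21, 9.08 and 9.04 in 5EL, 9.05, 8.92, 9.16 and 9.12 in 5ELKO, 9.09, 9.02 and 8.93 in EL, and 9.14, 9.19 and 9.15 in ELKO. ELKO lay above EL in every library, while 5EL and 5ELKO overlapped. Its call was lost without 5ELKO replicate 2, EL replicate 3 or ELKO replicate 2. Acacb, the acetyl-CoA carboxylase of the mitochondrial surface, was at 8.06, 8.03, 7.77, 7.73 and 7.71 in 5EL, 7.73, 7.60, 7.85 and 7.76 in 5ELKO, 7.71, 7.70 and 7.50 in EL, and 7.81, 8.23 and 7.59 in ELKO. Its 2 highest values came from the libraries with high choroid plexus markers, and its interaction was -0.37 (SE 0.18, adjusted p = 1). Soat1, which esterifies cholesterol, was at 9.84, 9.70, 9.52, 9.79 and 9.73 in 5EL and 9.81, 9.81, 9.84 and 9.79 in 5ELKO (0.10, SE 0.059, adjusted p = 0.999). The 5ELKO libraries spanned a narrow range inside that of 5EL; without 5EL replicate 1, Soat1 had a nominal p under 0.05. Thrsp, a regulator of lipogenesis, was at 7.57, 7.59, 7.74, 7.55 and 7.49 in 5EL, 7.75, 7.57, 7.65 and 7.82 in 5ELKO, 7.59, 7.85 and 8.14 in EL, and 7.45, 7.85 and 7.97 in ELKO. EL replicate 3 held the highest and ELKO replicate 1 the lowest of the 15 values of Thrsp.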

How the data were processed

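Poly(A) RNA of thalamus was sequenced from 15 mice (5EL, n = 5; 5ELKO, n = 4; EL, n = 3; ELKO, n = 3). The authors trimmed reads (Trimmomatic 0.39), aligned them to GRCm38 (HISAT2 2.2.1), assigned pairs to the exons of each named gene regardless of strand (featureCounts 2.0.3) and processed counts with DESeq2 (1.38.3); versions are from the submitters' processing notes. The deposited values are on a log2 scale, from -2.27 to 18.98. The transformation and the annotation release are not given in the sources used here. How low values were treated in it is likewise not given. The deposited files hold no counts, and the read totals that the study lists for some libraries were not used here, so no counting intervals are given. Of 105 library pairs, 0 were identical. Nothing in the labels ties a library to a litter or extraction day; p-values measure the spread between these libraries.

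Group differences were tested with limma 3.58.1 (R 4.3.3; empirical Bayes with trend) on the deposited log2 values, with Benjamini-Hochberg adjustment over all genes tested. A gene entered if its log2 value reached 3.32 (a linear value of 10) in a number of libraries equal to the size of the smallest group. 5ELKO against 5EL used its 9 libraries, and the other comparisons all 15. The code was tested on simulated data. Members and lists were chosen with earlier results of these data known. Values in every library are given for the 5 members with the smallest nominal p in each comparison and for Srebf1, Srebf2, Scap, Insig1, Hmgcs1, Sqle, Fasn and Scd2, and, of the 25 other pathway genes, for the 2 with the smallest nominal p in each comparison. Some of the other pathway genes are counted but not reported by name here. Exon lengths and coordinates are from GENCODE M21 (GRCm38); transcripts were matched to each other at 97% identity over at least 75 bases. Marker lists of oligodendrocytes, their precursors, astrocytes, reactive astrocytes, neurons, thalamus, microglia, plaque-associated microglia, endothelium, choroid plexus, hepatocytes and adipocytes were averaged per library. The means of the lists not described in the results were 9.39 to 9.73 for precursors, 12.31 to 12.50 for astrocytes, 8.66 to 9.01 for microglia and 9.23 to 9.62 for endothelium.

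EL and ELKO libraries of one number shared their deviations from the group means (correlations over genes of 0.453, 0.325 and 0.742); the other pairs of groups did not in every pair (-0.32 to 0.228). What those numbers share is not given in the sources used here. Alternatives were other filters and variance priors, recentred libraries, Xist as a covariate, the libraries of the compared groups alone, a replicate block and leaving out libraries. Those leaving out several libraries together were chosen after seeing the data.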

Additional observations from a re-analysis of the deposited data

Results flagged for a closer look

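In 6 of the 62 groups of 4 or 5 libraries examined, 1 library lay far from the rest by Dixon's ratio. This ratio is the gap to the nearest library divided by the whole range. Chance gives about 1 in 20 for independent groups, but these are not independent, because the genes share libraries. The rate over all genes is not given here, so the count is not read as an excess. In 5EL, Fasn in replicate 1 was at 13.14 against 12.80 to 12.87 in the others (ratio 0.797). In 5ELKO, replicate 2 was high for Hmgcs1 (12.67 against 12.44 to 12.47, ratio 0.855), Cyp51 (11.03 against 10.77 to 10.78, ratio 0.941) and Hsd17b7 (9.85 against 9.599 to 9.64, ratio 0.847). Also in 5ELKO, Insig1 was low in replicate 1 (10.72 against 11.05 to 11.09, ratio 0.892) and Pmvk in replicate 4 (9.65 against 9.78 to 9.80, ratio 0.877).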

How the results depend on the processing

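Of 1593 values of single genes recomputed under the alternatives, 1441 kept their sign and their side of a nominal p of 0.05. A further 59 passed it only under the alternative, and 16 no longer passed it. The sign changed in 77 with neither value past it, and in 0 with either value past it. Many of these alternatives could not change a sign. Another filter or variance prior leaves a difference as it is, as does leaving out a library of a group not compared. The counts are therefore not a measure of stability. Recentred libraries gave 1 member at a nominal p under 0.05 in 5ELKO against ELKO (Srebf1), 1 in ELKO against EL (Scd1) and 1 in the interaction (Scd1). The libraries of the compared groups alone gave 2 in 5EL against EL (Tm7sf2 and Srebf1) and 1 in 5ELKO against ELKO (Sc5d). Without 5EL replicate 1, ELKO replicate 1 and ELKO replicate 2 together there was 1 member in 5ELKO against 5EL (Fasn). No ELKO library enters that comparison, so this is the same fit as without 5EL replicate 1 alone. ELKO then held replicate 3 alone, so only differences are given for the other comparisons. They were -0.24 for Tm7sf2 and -0.157 for Scd1 in 5EL against EL, the same differences as without 5EL replicate 1 alone. In 5ELKO against ELKO they were -0.347 for Pmvk, -0.445 for Tm7sf2 and -0.421 for Msmo1. Without EL replicate 3 and ELKO replicate 3 there was 1 in ELKO against EL (Tm7sf2), and in 5EL against EL the member called was Hsd17b7 in place of Scd1. The cause of these differences was not tested. Shares of all genes tested are not given here for recentred libraries, for the compared groups alone or for libraries left out together. Those counts are therefore not a result about the members. Leaving out 1 library at a time gave 0 to 1 members in 5ELKO against 5EL, 0 to 5 in 5EL against EL, and 0 to 2 in each of the other comparisons. Of all genes tested, 2.04% to 3.34% passed in 5ELKO against 5EL and 2.24% to 20.2% in 5EL against EL. The fit with 5 members was the one with 20.2%. The shares were 1.7% to 5.02% in 5ELKO against ELKO, 1.23% to 11.6% in ELKO against EL and 1.7% to 7.78% in the interaction. The median over members then ran from -0.000203 to 0.0495 in 5ELKO against 5EL, -0.0607 to 0.00807 in 5EL against EL, -0.0608 to 0.00476 in 5ELKO against ELKO, -0.00926 to 0.0882 in ELKO against EL and -0.046 to 0.0242 in the interaction. With the replicate block, 1 member had a nominal p under 0.05 in 5EL against EL (Scd1, -0.146, limma adjusted p = 0.511) and 0 in ELKO against EL. Of all genes tested, 9.5% and 2.77% passed there. The fit with the replicate block changed no call of the members. It turned their median from -0.0316 to 0.0043 in 5EL against EL and from -0.00812 to 0.00938 in 5ELKO against ELKO. Deviations were shared by number in every pair only between EL and ELKO. Some 5EL and 5ELKO libraries also have no EL or ELKO library of their number. These shifts are therefore not read as an effect of pairing.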
